A study of Mus musculus with 6 samples.

Results

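The open chromatin of mouse embryonic fibroblasts (MEFs) kept in 3% oxygen was described in 2 ATAC-seq libraries, 1 from proliferating cells at passage 1 (Hyp-Pro) and 1 from cells that had become immortalized (Hyp-Imm). ATAC-seq uses the Tn5 transposase to cut DNA that nucleosomes leave free, so that stacks of reads, called peaks, mark promoters and other accessible elements. The members are the peaks the authors called in the libraries whose sample labels give hypoxia at pass 1 and hypoxia immortalized, 47523 for the first and 37770 for the second, that is 85293 of the 216828 peaks in the 6 lists of the series. Peaks that overlapped by at least 1 bp were joined, which gave 77590 regions.

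All MEFs came from E13.5 C57BL/6J embryos, which were minced once the head and red organs had been taken away, so a culture can hold cells of any tissue that was left. Whether a culture came from 1 embryo or several was not given in the sources used here. Cells grew in DMEM with 10% fetal bovine serum, in 3% oxygen (hypoxia) or 20% oxygen (normoxia), and the other ATAC-seq libraries, used here only as a reference, were labelled normoxia pass 1 (Norm-Pro) and normoxia senescent (Norm-Sen). There was 1 library per condition, so no replicate error exists, no test between conditions was made, and every interval is a 95% exact Clopper-Pearson interval that covers counting error only. Tfcp2l1 ChIP-seq peaks were available from senescent MEFs in normoxia and immortalized MEFs in hypoxia.

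Primary MEFs divide for a limited number of passages and then enter senescence, a lasting arrest enforced by the CDK inhibitors of the Cdkn2a and Cdkn2b locus and by p53 with its target Cdkn1a. Low oxygen delays this arrest, and cultures that escape it are called immortalized. Promoters rich in CpG are open in most cell types, whereas distal elements differ between cell states. In fibroblasts many distal elements carry the site of AP-1, the Fos and Jun dimers that answer growth signals, and others carry the site of CTCF, which anchors chromatin loops.

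Sequences at the summits are printed for each class of regions, chosen by a different rule in each, so that no contrast between classes is to be read from them. For the regions open in Hyp-Imm only, the 60 bases around the summit of the 3 strongest distal regions are printed (of those within 100 kb of a coding TSS, with the window outside exons and at most 50% repeat-masked sequence) to show what lay under them, with unbroken runs of a TG, CA, TC or GA dinucleotide of at least 20 bases in capitals (a run may go on beyond the window). The first is in an intron of Gabrg1 (chr5:70778366-70778425), the second between genes near Ghsr (chr3:27392458-27392517) and the third between genes near C1qb (chr4:136879694-136879753), all on the plus strand of GRCm38.
Gabrg1: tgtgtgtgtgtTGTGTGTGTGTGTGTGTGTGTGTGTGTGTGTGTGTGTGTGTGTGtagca
Ghsr: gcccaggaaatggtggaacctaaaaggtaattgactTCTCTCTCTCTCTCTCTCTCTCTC
C1qb: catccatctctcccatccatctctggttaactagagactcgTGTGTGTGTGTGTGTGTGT

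For the regions open in Hyp-Pro only, the 3 strongest distal regions with the AP-1 site (TGANTCA, searched on both strands) under the same limits are printed with the match nearest the summit in capitals, and the Mrpl33 window holds a further match in lower case. The printed regions lie between genes near Mrpl33 (chr5:31576806-31576865) and Sema4b (chr7:80166882-80166941), and in an intron of Trabd2b (chr4:114472343-114472402).
Mrpl33: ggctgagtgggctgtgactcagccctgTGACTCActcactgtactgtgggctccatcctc
Sema4b: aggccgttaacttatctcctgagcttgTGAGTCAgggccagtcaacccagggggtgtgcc
Trabd2b: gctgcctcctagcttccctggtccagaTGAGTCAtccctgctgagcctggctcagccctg

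For the distal regions open in both libraries, 1 AP-1 site, upstream of Hmox1 (chr8:75083981-75084040), the gene of a heme oxygenase, and 1 CTCF site, near Gm15319 (chr8:20424845-20424904) are printed in the same way.
Hmox1: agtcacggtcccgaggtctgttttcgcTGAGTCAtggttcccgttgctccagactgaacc
Gm15319: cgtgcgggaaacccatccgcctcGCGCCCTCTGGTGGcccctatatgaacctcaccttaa

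For promoters, the 60 bases before the transcription start site (TSS) are printed in the direction of transcription for Rnf44, open in both libraries (chr13:54693908-54693967, minus strand), Acy1 and Snx1, open in Hyp-Pro only (chr9:106438320-106438379 and chr9:66124887-66124946, minus strand), and Phf20l1 and Lin7c, open in Hyp-Imm only (chr15:66577500-66577559 and chr2:109890793-109890852, plus strand). The site of Sp and Klf factors (GGGCGG on either strand) is in capitals, and the windows of Acy1 and Lin7c hold none.
Rnf44: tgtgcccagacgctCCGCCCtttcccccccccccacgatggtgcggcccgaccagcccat
Acy1: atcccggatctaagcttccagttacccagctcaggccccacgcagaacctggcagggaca
Snx1: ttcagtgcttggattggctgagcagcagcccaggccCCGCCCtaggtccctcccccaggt
Phf20l1: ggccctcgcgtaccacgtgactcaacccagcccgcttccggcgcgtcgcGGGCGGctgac
Lin7c: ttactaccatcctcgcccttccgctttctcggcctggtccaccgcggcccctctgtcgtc

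Several facts about the libraries bear on all that follows. File names and sample labels contradicted each other for all 4 ATAC-seq libraries, and the labels were followed. By the file names the library labelled Hyp-Pro would be normoxia pass 1 and Hyp-Imm normoxia senescent, and the hypoxia pair would be the libraries labelled Norm-Sen and Norm-Pro. Read depth in Hyp-Imm was lower than in Hyp-Pro, with a genome-wide background of 0.445 against 0.956 reads per position and a median of 7 against 10 reads at the summit. Reads at the summit are called the pileup below, a whole number recovered from the deposited fold enrichment and −log10 p of each peak.

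The sex chromosomes set the libraries apart. Chromosome X held 4.76% of the peaks of Hyp-Pro (95% CI 4.57-4.96, 2264 peaks) and 1.44% of those of Hyp-Imm (1.33-1.57, 545 peaks), against 1.08% in Norm-Pro and 4.44% in Norm-Sen. On chromosome Y before 5 Mb, Hyp-Imm held 9 peaks and Norm-Pro 3, while Hyp-Pro and Norm-Sen had 0. The strongest of these peaks, at chrY:259047-259397, had a pileup of 31 in Hyp-Imm. With 1 library per condition, the condition and the culture it was taken from cannot be told apart, and the region counts are also given without chromosomes X and Y.

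**Figure D1:**
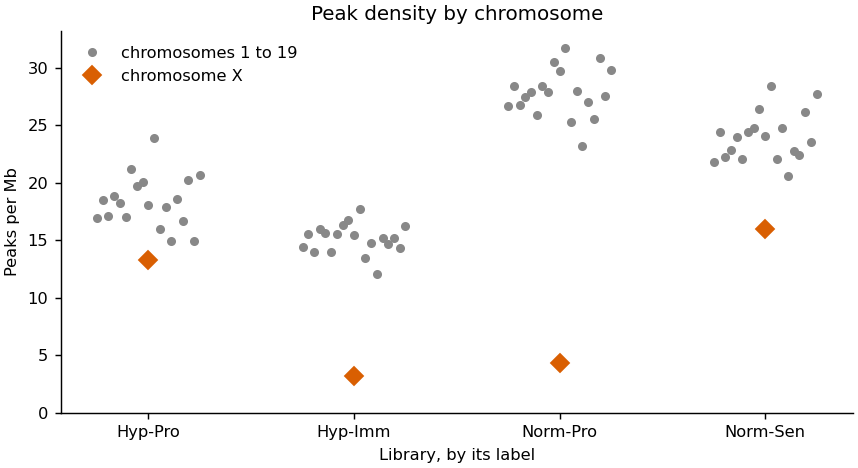
Peaks per Mb on each of chromosomes 1 to 19 (grey points, in chromosome order from left to right) and on chromosome X (orange diamond) in the 4 ATAC-seq libraries, by their labels. Chromosome X stands at 13.2 peaks per Mb in Hyp-Pro and 3.19 in Hyp-Imm, while the density over all autosomes is 18.3 and 15.1.

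The label of fibroblasts was checked on promoters of marker genes. Of 20 mesenchymal and fibroblast genes, 6 had a promoter peak in both libraries, 6 in Hyp-Pro only and 0 in Hyp-Imm only, beside 28.0%, 19.5% and 5.45% of all protein-coding genes. The share open in both was thus near that of all genes. Col1a2, a chain of type I collagen, had a pileup of 13 in Hyp-Pro and 9 in Hyp-Imm, and fibronectin (Fn1) had 23 and 12. Vim and Twist1 were also open in both, whereas Col1a1, Pdgfra and Prrx1 had a promoter peak in neither, although Col1a1 had 25 reads at its summit in Norm-Pro and 19 in Norm-Sen. Markers of other cell types were open in both libraries less often. The counts were 0 of 20 macrophage and blood genes, 0 of 12 skeletal muscle genes and 1 of 16 epithelial genes (Grhl1). They were 2 of 14 endothelial genes (Kdr and Erg) and 2 of 16 neural genes (Map2 and Stmn2). Within a single library the lists were less distinct. In Hyp-Imm 5 of 16 epithelial genes had a promoter peak, beside 6 of 20 mesenchymal genes and 33.4% of all genes. In Hyp-Pro it was 7 of 16 neural genes, beside 12 of 20 mesenchymal genes and 47.4% of all genes. Ptprc, Spi1 and Csf1r (blood), Pecam1 (endothelium), Krt5 (epithelium) and Myod1 (muscle) had no promoter peak in either library. Runx1 (blood), Cdh5 (endothelium) and Myf5 (muscle) had one in Hyp-Pro only, and Cd68 (blood) and Cdh1 (epithelium) in Hyp-Imm only. A promoter peak shows open chromatin and not transcription.

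Most regions were called in 1 library only. Of the 77590 regions, 7017 (9.04%; 95% CI 8.84-9.25) were open in both libraries, 40253 (51.9%) in Hyp-Pro only and 30320 (39.1%) in Hyp-Imm only. With the 37770 strongest peaks of each library by −log10 q, the counts were 6609 (9.68%), 30964 (45.3%) and 30731 (45.0%) of 68304. Without chromosomes X and Y they were 6881, 38115 and 29896 of 74892, and on chromosome X 131, 2127 and 407 of 2665. Conditions taken from the file names gave 14562 regions in both, 46108 in the pass 1 library only and 53919 in the immortalized library only.

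The classes lay in different places. A promoter, here a region no more than 1 kb from a protein-coding TSS, was the place of 73.0% of the shared regions (95% CI 71.9-74.0), 20.7% of the Hyp-Pro-only regions (20.3-21.1) and 9.07% of the Hyp-Imm-only regions (8.75-9.40). Intergenic sequence held 16.8%, 45.1% and 53.1%, and introns 9.21%, 30.6% and 34.8%. Equal numbers of peaks left the order in place, with 74.1%, 21.7% and 9.67% at promoters. With conditions from the file names the values were 62.6%, 10.8% and 10.3%.

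**Figure D2:**
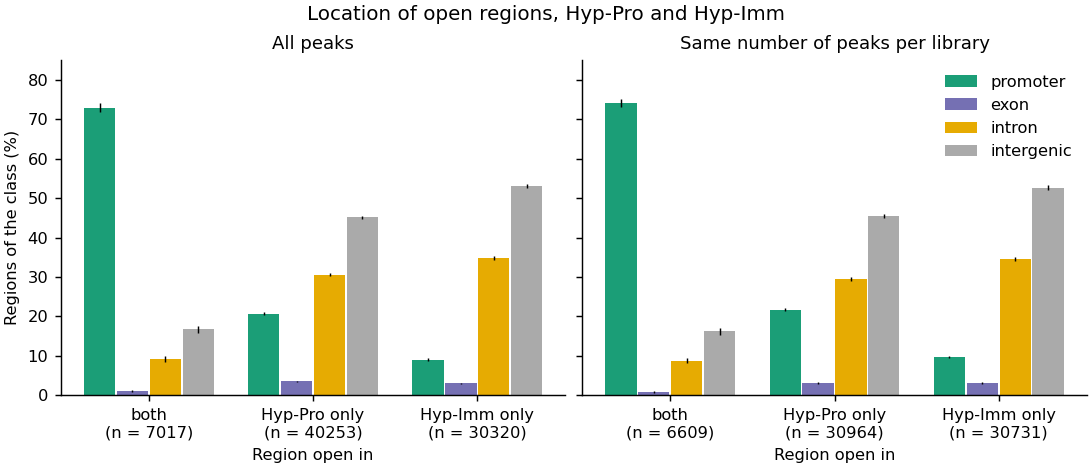
Share of regions at promoters, exons, introns and between genes (y axis, %) for regions open in both libraries, in Hyp-Pro only and in Hyp-Imm only, on all peaks (left) and on the same number of peaks per library (right). Bars start at 0 and error bars are 95% exact binomial intervals; the promoter bar falls from 73.0% to 20.7% and 9.07% on the left and from 74.1% to 21.7% and 9.67% on the right.

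The strongest peaks of either library were mostly found in the other. Of the 500 strongest peaks by −log10 q, 94.6% of those of Hyp-Pro (95% CI 92.2-96.4) had a peak in Hyp-Imm and 92.0% of those of Hyp-Imm (89.3-94.2) had one in Hyp-Pro. In the normoxia pair the values were 99.4% and 100%. Among the 2000 strongest, 85.5% of the promoter peaks and 69.3% of the distal peaks of Hyp-Pro were found in Hyp-Imm, and in the other direction 94.3% and 37.9%. The corresponding shares for distal peaks of Norm-Pro and Norm-Sen were 93.7% and 94.8%. Strong distal peaks of Hyp-Imm were thus the ones least often met in the library it was paired with.

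The share found in the other library rose with the pileup, and promoters and distal regions differed at the same pileup. Of Hyp-Pro regions with 10 to 14 reads on the autosomes, 25.7% of 6158 at promoters and 5.35% of 15499 distal ones were found in Hyp-Imm, and at 20 to 24 reads 72.4% and 44.7%. Of Hyp-Imm regions with 10 to 14 reads, 77.3% of 2716 at promoters and 20.2% of 2162 distal ones were found in Hyp-Pro. Scaled by the background, 59.6% of the 38056 autosomal Hyp-Pro-only regions would have an expected pileup at or above the lowest that could be called in Hyp-Imm, but 0.549% of them (209) had a Poisson chance of at least 95% of being called there. Scaled by the pileup ratio at promoters open in both, these shares were 96.9% and 4.13% (1571). Of the 29875 autosomal Hyp-Imm-only regions, 97.6% and 41.7% had such a chance of being called in Hyp-Pro by the same scalings. The observed pileup was taken as the mean in this step, which overstates the expectation for regions chosen because they were called.

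**Figure D3:**
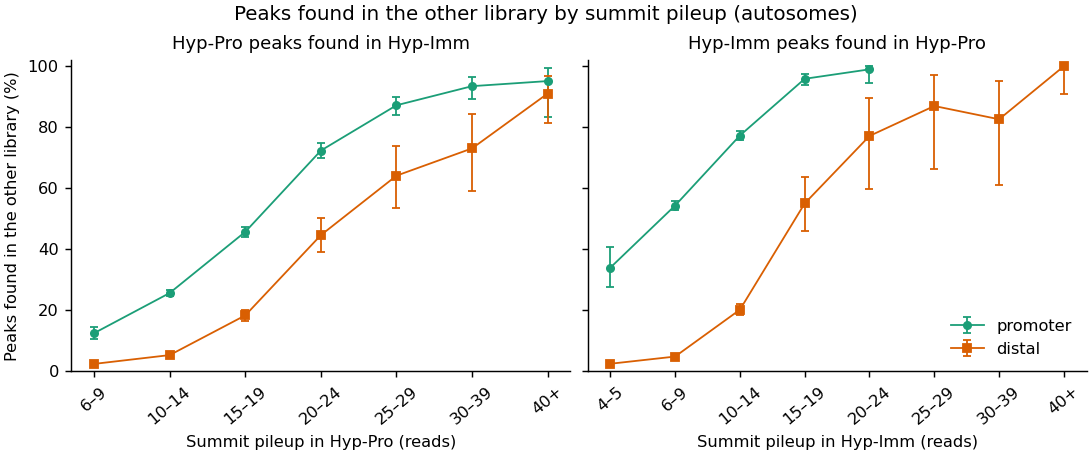
Share of regions with a peak in the other library (y axis, %) against the pileup at the summit (x axis, reads), for Hyp-Pro regions (left) and Hyp-Imm regions (right) on the autosomes, at promoters (green) and distal (orange). Bars are 95% exact binomial intervals and bins with under 20 regions are left out; at 10 to 14 reads the promoter points stand at 25.7% and 77.3% and the distal points at 5.35% and 20.2%.

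At regions open in both libraries the pileup of Hyp-Imm was usually the lower. The median was 17 reads in Hyp-Pro and 10 in Hyp-Imm at the 5120 shared promoters, a median ratio of 59.3%, and 12 and 8 at the 1897 shared distal regions, a ratio of 66.7%. The background of Hyp-Imm was 46.6% of that of Hyp-Pro. Pileup in Hyp-Imm reached that of Hyp-Pro in 449 of the 7017 regions. Across the shared regions the Spearman correlation of the pileups was 0.51 at promoters and 0.65 at distal regions, a description over regions of the same libraries.

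The 10 strongest shared regions with a coding TSS within 100 kb were all away from promoters and were called in both normoxia libraries. An intron of Filip1l (chr16:57391378-57391729) had 150 reads in Hyp-Pro, 118 in Hyp-Imm, 158 in Norm-Pro and 158 in Norm-Sen. A region between genes near Axin2 (chr11:109011610-109012139), a gene of the Wnt pathway, had 123, 114, 149 and 134. In these 10 regions the ratio of Hyp-Imm to Hyp-Pro ran from 75.2% to 101.7%, and 9 of them also overlapped a peak of each Tfcp2l1 ChIP-seq list. One, near Col19a1 (chr1:24613007-24613224), shared 87.1% of its 25-base words with the mitochondrial genome. Another, near Rpusd4, had a fully repeat-masked summit and 118, 120, 139 and 162 reads. The background of the 4 ATAC-seq libraries ran from 0.445 to 1.77 reads per position, a larger relative range than that of these pileups. Whether these regions are regulatory elements, bound by Tfcp2l1, or places where reads collect in any library was not tested.

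Reads differed more at 5 of the 8 strongest shared promoters than at the 10 strongest shared regions. Leaving out 3 predicted genes in repeat-like sequence (Gm10800, Gm10717 and Gm10801), the strongest shared promoters were those of Rnf44 (54 reads in Hyp-Pro, 22 in Hyp-Imm, 39 in Norm-Pro and 36 in Norm-Sen), Add3 (46, 21, 36 and 34), Kdm1b (46, 20, 35 and 30), Ifrd1 (43, 11, 28 and 35) and Tsga10 (41, 14, 29 and 41). Kdm1b encodes a histone demethylase and Add3 a protein of the membrane skeleton. Hyp-Pro was the highest library at 4 of these 5 and tied with Norm-Sen at Tsga10, and Hyp-Imm the lowest at all 5. The ranking used the higher −log10 q of the hypoxia libraries, which Hyp-Pro supplied at all 5. A high place of Hyp-Pro, and a low ratio of Hyp-Imm to Hyp-Pro, are thus favoured by the choice and are no result. Over all 5120 shared promoters the median ratio was 59.3%. Hyp-Imm also had the lowest background of the 4 ATAC-seq libraries, at 0.445 reads per position.

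The strongest Hyp-Pro-only regions were promoters that the normoxia libraries also held. Of the 10 strongest, 8 were promoters, 10 were called in Norm-Pro and 9 in Norm-Sen. The promoter of Pim1 (chr17:29490445-29490726), a serine/threonine kinase induced by cytokines, had 37 reads in Hyp-Pro, 28 in Norm-Pro, 34 in Norm-Sen and no peak in Hyp-Imm. Acy1 had 35, 31 and 24, Tent5c 33, 22 and 18, Snx1 29, 17 and 28, and the splicing factor gene Sf3b1 27, 21 and 16. The region at Stat3 (30 reads, chr11:100939375-100939709) was of this class by overlap alone, since Hyp-Imm had a peak of 11 reads at chr11:100939803-100939935, within the same promoter. None of the 10 held a dinucleotide run of 20 bases within 100 bp of the summit.

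The strongest Hyp-Imm-only regions were of another kind. Of the 10, 3 were promoters, 3 were called in Norm-Pro and 1 in Norm-Sen, and 9 held a dinucleotide run, of 28 to 54 bases, within 100 bp of the summit. The exception was the strongest, the CpG-rich promoter of Phf20l1 (chr15:66577427-66577655), which encodes a reader of methylated lysine, with 19 reads in Hyp-Imm, 17 in Norm-Pro, 20 in Norm-Sen and no peak in Hyp-Pro. Among the others were regions in introns of Gabrg1 (15 reads), Glg1 (16), Slc44a1 (15) and Slc4a4 (14), between genes near Ghsr (16) and C1qb (17), and at the promoters of Cntfr (16) and Lsamp (15). None of the 9 with a run had a peak in Hyp-Pro or Norm-Sen, and Norm-Pro had one at Cntfr (10 reads) and C1qb (13). Further promoters among the strongest 8 of the class were those of Fbxo46 (14 reads in Hyp-Imm, 22 in Norm-Pro and 17 in Norm-Sen), Lin7c (14, 18 and 26), Ptprz1 (12 in Hyp-Imm and 12 in Norm-Pro, with a run), Galnt15 (16 reads in Hyp-Imm alone) and Hmg20b (17 in Hyp-Imm alone).

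Runs of dinucleotide repeats, which are common in the mouse genome, were therefore counted in all distal regions on the assembled chromosomes, a measure chosen after the strongest regions had been seen. A run of at least 20 bases lay within 100 bp of the summit in 4434 of 27550 distal Hyp-Imm-only regions (16.1%; 95% CI 15.7-16.5), 8.50% of the distal Hyp-Pro-only regions (8.20-8.81) and 7.70% of the distal shared regions (6.53-9.01). Windows of the same length 1 kb away held one in 2.94%, 2.97% and 2.96%. TG or CA runs made up most of them, at 13.7% of the distal Hyp-Imm-only regions against 4.00% for TC or GA, and TA runs were at 0.102%.

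Among the Hyp-Imm-only regions the share rose with −log10 q. It was 3.45% at −log10 q below 2, 7.92% from 2 to 3, 24.0% from 3 to 5, 58.1% from 5 to 10 (808 of 1390) and 90.3% at 10 or more (28 of 31). Hyp-Pro-only regions stood at 3.37%, 3.68%, 8.06%, 18.8% and 13.8% in the same steps, and shared regions at 2.62% in the highest. The share was 15.5% of all distal peaks of Hyp-Imm (95% CI 15.1-16.0), 8.43% in Hyp-Pro, 7.57% in Norm-Pro and 4.13% in Norm-Sen, and at promoters 1.74%, 0.964%, 0.835% and 0.599%. Whether these runs bear on read depth or on the sex chromosome values was not tested. Without peaks that hold a run, 826 Hyp-Imm-only regions with −log10 q of at least 5 were left of 1690, and 6217 of 7068 in Hyp-Pro only.

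**Figure D4:**
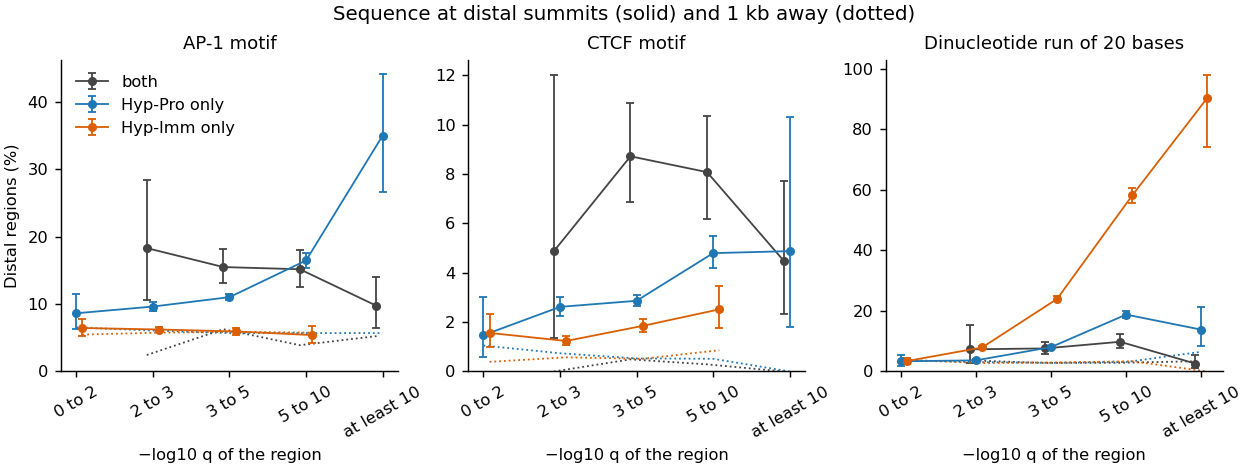
Share of distal regions (y axis, %) that hold the AP-1 site, the CTCF site or a dinucleotide run of at least 20 bases within 100 bp of the summit, against the −log10 q of the region (x axis), for regions open in both libraries (grey), in Hyp-Pro only (blue) and in Hyp-Imm only (orange); bins with under 30 regions are left out. Dotted lines are windows 1 kb away and bars are 95% exact binomial intervals; the run share of Hyp-Imm-only regions climbs from 3.45% to 90.3% and the AP-1 share of Hyp-Pro-only regions from 8.63% to 35.0%.

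The AP-1 and CTCF sites were more frequent in the Hyp-Pro-only than in the Hyp-Imm-only distal regions by the labels. With conditions from the file names the shares lay close together, both orders turned and the intervals overlapped. AP-1 stood at 8.02% (95% CI 7.76-8.29) and 8.27% (8.03-8.52), and CTCF at 2.48% (2.33-2.64) and 2.78% (2.64-2.93). The AP-1 site was in 11.5% of the distal Hyp-Pro-only regions (95% CI 11.2-11.9), against 5.78% of windows 1 kb away, and in 6.08% of the distal Hyp-Imm-only regions (5.80-6.37), against 5.78%. Shared distal regions held it in 14.6%, against 5.06%. Between −log10 q of 5 and 10 the share was 16.5% of 4273 Hyp-Pro-only regions and 5.40% of 1390 Hyp-Imm-only regions, and at 10 or more it was 35.0% of 123 Hyp-Pro-only regions. The CTCF site, with 1 mismatch allowed, was in 7.75% of the shared, 3.06% of the Hyp-Pro-only and 1.54% of the Hyp-Imm-only distal regions, against 0.323%, 0.578% and 0.555% 1 kb away. Without peaks that hold a dinucleotide run, AP-1 stood at 12.0% in Hyp-Pro only and 6.54% in Hyp-Imm only, and from 5 to 10 at 18.7% of 3472 and 8.76% of 582 (6.59-11.4).

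Other sites were counted in the same way. GGGCGG was in 23.2%, 7.31% and 4.01% of the shared, Hyp-Pro-only and Hyp-Imm-only distal regions, and in 74.1%, 56.5% and 43.9% of the promoter regions. TAATTA, read by homeobox factors, was in 1.08%, 1.79% and 2.97% of the distal regions and in 5.22% to 6.72% of windows 1 kb away. The TEAD site (ACATTCC) stood at 2.85%, 3.26% and 2.99%, against 2.69% to 2.79%, and the consensus of Tfcp2l1, with 2 mismatches, at 0.808%, 0.597% and 0.519%, against 0.808%, 0.622% and 0.588%. The site of the hypoxia-inducible factors (ACGTGC) was in 3.61%, 2.50% and 2.33% of the distal regions, against 2.32%, 2.15% and 1.85%. At promoters, NFY sites (ATTGG) were in 33.8%, 18.4% and 16.9% of the regions, ETS sites (CCGGAAGT) in 4.57%, 3.45% and 2.40%, CRE sites (TGACGTCA) in 2.60%, 1.57% and 1.64%, and YY1 sites (AAGATGGCG) in 2.31%, 1.31% and 1.67%. In distal regions RUNX sites (TGTGGTT) stood at 3.88%, 4.12% and 4.22% and NFAT sites (TGGAAA) at 10.8%, 13.1% and 14.2%, both below the windows 1 kb away. Median GC content at distal summits was 57.0%, 52.0% and 49.5%, and a match is a string of letters, not a bound site.

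Whether a region was also open in normoxia differed between the classes. No normoxia library had a peak at 12.1% of the shared, 72.9% of the Hyp-Pro-only and 88.4% of the Hyp-Imm-only regions. For distal regions with −log10 q from 5 to 10 the shares were 22.5%, 68.7% and 87.7%, and for promoter regions of the same strength 2.67%, 19.3% and 32.4%. Distal Hyp-Imm-only regions that a normoxia library did hold carried the AP-1 site in 8.60% (95% CI 7.44-9.87) and the CTCF site in 6.20% (5.21-7.31), and those that none held in 5.87% and 1.15%. For Hyp-Pro-only regions the values were 20.0% and 7.58%, and 9.77% and 2.14%. A normoxia library held 5.64% of the distal Hyp-Imm-only regions with a dinucleotide run and 8.13% of those without.

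At the level of genes, Hyp-Pro had the larger set of open promoters by the labels. Of 21864 protein-coding genes, 6115 (28.0%) had a promoter peak in both libraries, 4253 (19.5%) in Hyp-Pro only, 1191 (5.45%) in Hyp-Imm only and 10305 (47.1%) in neither. With equal numbers of peaks the shares were 26.9%, 16.8%, 6.49% and 49.8%. With conditions from the file names the order turned, with 1624 genes open at pass 1 only and 2029 in the immortalized library only. CpG-rich promoters (9528 genes) were open in both in 52.7%, in Hyp-Pro only in 27.2% and in Hyp-Imm only in 5.42%, and of the 12336 CpG-poor ones 1092 (8.85%), 1666 and 675 (5.47%) were so placed. Of the genes open in Hyp-Pro only, 14.3% had a promoter peak in neither normoxia library, and of those open in Hyp-Imm only 33.5%. In the 60 bases before the TSS, GGGCGG stood at 35.1% of the TSSs of genes open in both, 29.0% for Hyp-Pro only, 21.2% for Hyp-Imm only and 10.1% for neither, against 22.7% of all 41438 TSSs.

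Gene lists are set against those backgrounds of 28.0%, 19.5% and 5.45%. CpG-rich promoters belonged to 43.6% of all genes. The share was 92.3% in the hypoxia response list, 90.9% in the CDK inhibitor and p53 list and 92.9% in the Polycomb list. For lists so rich in CpG the values of CpG-rich promoters, 52.7%, 27.2% and 5.42%, are the nearer background. A gene's value is the pileup of its strongest promoter peak in each library, and the peaks of a gene called open in both need not overlap. Of 26 genes of the hypoxia response, 17 were open in both, 6 in Hyp-Pro only and 0 in Hyp-Imm only. The kinase Pdk1, which holds pyruvate back from the TCA cycle, had 28 reads in Hyp-Pro, 12 in Hyp-Imm, 26 in Norm-Pro and 19 in Norm-Sen, and the glucose carrier Slc2a1 had 25, 13, 25 and 21. The glycolytic gene Pgk1 had 18, 15, 21 and 13, and Hif1a, the oxygen-regulated subunit, had 17 in each hypoxia library (−log10 q of 8.27 in Hyp-Pro and 11.3 in Hyp-Imm). Open in Hyp-Pro only were Ero1l (24 reads), Ndrg1 (24), Hk2 (18), P4ha2 (15), the oxygen sensor Egln1 (15) and Epas1 (13), and all 6 had a peak in Norm-Pro. Vegfa, Car9 and Adm had no promoter peak in either. The median ratio of Hyp-Imm to Hyp-Pro over the 17 shared promoters was 54.5%, beside 58.8% over all 6115.

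Of 22 CDK inhibitors and p53 targets, 15 were open in both, 5 in Hyp-Pro only and 0 in Hyp-Imm only. Cdkn2a, which encodes p16INK4a and Arf, had 13 reads in Hyp-Pro and 8 in Hyp-Imm, and Cdkn2b, which encodes p15INK4b, had 10 and 9. The −log10 q was 5.29 and 3.32 for Cdkn2a, and 3.43 and 4.84 for Cdkn2b. Both genes thus had a promoter peak in the immortalized library, that of Cdkn2a at chr4:89294527-89294626. A gene's value takes the strongest peak at any of its TSSs, so the Cdkn2a value is not one for p16INK4a in particular. Cdkn1a, the gene of p21Cip1, had 18 reads in Hyp-Pro, 22 in Norm-Pro, 15 in Norm-Sen and no peak in Hyp-Imm. The other 4 in Hyp-Pro only were Trp53 (21 reads, at a promoter shared with Wrap53), Bbc3 (24), Plk2 (15) and Pmaip1 (12), the genes of p53 itself, the cell death factors Puma and Noxa, and a kinase. Bax had 18 and 12, and Mdm2, which degrades p53, 14 and 8.

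Genes of the cell cycle, of DNA repair and of telomeres were counted next. Of 30 cell cycle genes, 15 were open in both, 8 in Hyp-Pro only, 2 in Hyp-Imm only and 5 in neither. Pcna, the sliding clamp of replication, had 23 reads in Hyp-Pro and 10 in Hyp-Imm, and Mki67 24 and 16. Ccnd1 (19), Ccnd2 (18), Mcm7 (19), Foxm1 (17) and Cdc6 (15) were among the Hyp-Pro-only genes, and Mcm6 (9) and Aurkb were in Hyp-Imm only. Of 30 DNA repair genes, 18 were open in both, 7 in Hyp-Pro only and 0 in Hyp-Imm only, among them Xpc (23) and Lig4 (16). Of 14 telomere genes, 3 were open in both and 8 in Hyp-Pro only, including the shelterin genes Terf1 (12), Terf2 (14), Acd (20) and Pot1a (10), while Tert, the catalytic subunit of telomerase, had no promoter peak in either.

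Housekeeping lists serve as a reference for promoters that most cells keep open. Of 35 ribosomal protein genes, 13 were open in both, 14 in Hyp-Pro only and 3 in Hyp-Imm only, and of 30 genes of the TCA cycle and respiratory chain 13, 14 and 0. Cs, citrate synthase, had 19 reads in Hyp-Pro, 26 in Norm-Pro and 20 in Norm-Sen, and Cox4i1, a subunit of cytochrome oxidase, had 23, 19 and 19, with no peak in Hyp-Imm at either. Of 31 proteasome genes 18, 7 and 2 were so placed, and of 33 genes of RNA polymerase II and general transcription 18, 8 and 3. Rpl30 (18 reads) stood in Hyp-Pro only, and Rpl7 (11) and Med17 (9) in Hyp-Imm only. The Hyp-Pro-only share was 40.0% and 46.7% in the first pair of lists, and 22.6% and 24.2% in the second pair. It was 19.5% for all genes and 27.2% for those with CpG-rich promoters. With equal numbers of peaks the Hyp-Pro-only share was 28.6% for ribosomal proteins and 40.0% for the TCA cycle and respiratory chain. It was then 19.4% and 21.2% in the second pair, 16.8% for all genes and 23.9% for those with CpG-rich promoters.

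Regulators of chromatin and of stem cells gave mixed states. Of 28 Polycomb genes, 18 were open in both, 8 in Hyp-Pro only and 1 in Hyp-Imm only. Jarid2, a partner of the complex that methylates H3K27, had 23 reads in Hyp-Pro and 19 in Hyp-Imm, its methyltransferase Ezh2 14 and 9, and Bmi1 10 and 10 (−log10 q of 2.28 and 3.78). The peaks of Ezh2 did not overlap between the libraries, and with equal numbers of peaks Bmi1 was called in Hyp-Imm only. Of 25 stemness and pluripotency genes, 8 were open in both, 6 in Hyp-Pro only and 1 in Hyp-Imm only. Klf2 had 28 and 20, Klf4 19 and 11, and Myc 14 and 11, where the peaks of Myc lay at different places in its promoters. Among the hypoxia libraries, Sox9 (16), Gbx2 (12), Pou5f1 (12) and Tfcp2l1 (10) had a promoter peak in Hyp-Pro only. In Norm-Pro and Norm-Sen, Tfcp2l1 had 17 and 15 reads, and Sox9 had 15 and 20. The background of these libraries was 1.24 and 1.77 reads per position, against 0.956 in Hyp-Pro, so the reads give no order between libraries. Gbx2 and Pou5f1 had no promoter peak in normoxia. Hey1, a target of Notch, had one in Hyp-Imm only among the hypoxia libraries (9 reads, with 22 in Norm-Pro and 17 in Norm-Sen). Sox2, Nanog, Esrrb and Hes1 had none in either hypoxia library. Pou5f1 was no longer called with equal numbers of peaks, whereas Tfcp2l1, Sox9 and Gbx2 were.

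**Figure D5:**
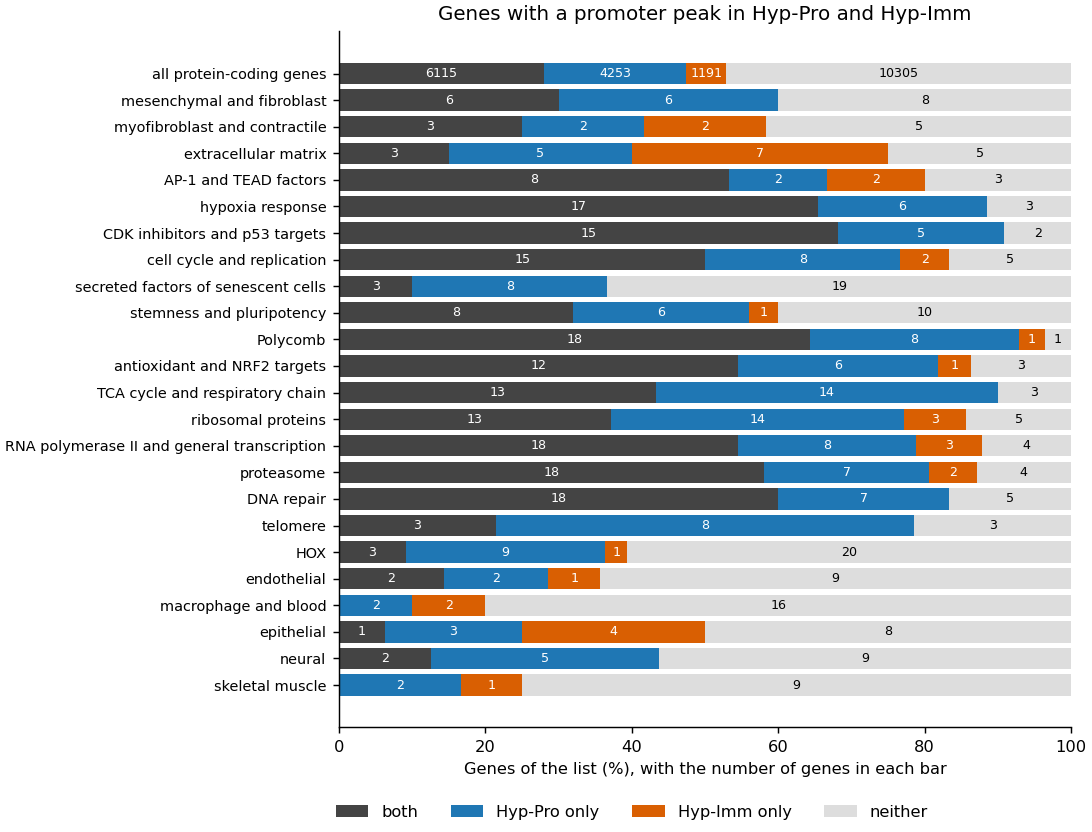
Share of the genes of each list (x axis, %) with a promoter peak in both libraries (grey), in Hyp-Pro only (blue), in Hyp-Imm only (orange) or in neither (light grey), with the number of genes in each bar; the top bar is all 21864 protein-coding genes. Orange is longest for the extracellular matrix list (7 of 20), beside 5.45% of all genes. It is absent from the mesenchymal, hypoxia response, CDK inhibitor and p53 target, secreted factor, TCA cycle and respiratory chain, DNA repair, telomere and neural lists. With equal numbers of peaks the DNA repair list had 2 such genes.

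On all peaks, the extracellular matrix and epithelial lists were the 2 of the 23 with more Hyp-Imm-only than Hyp-Pro-only genes, and with equal numbers of peaks the endothelial list (1 against 0) was a further one. Of 20 matrix genes, 3 were open in both, 5 in Hyp-Pro only, 7 in Hyp-Imm only and 5 in neither. Serpinh1, the collagen chaperone, had 14 reads in Hyp-Imm, 20 in Norm-Pro and 19 in Norm-Sen, and the collagen crosslinker Lox 9, 15 and 16, with no peak in Hyp-Pro. Bgn (9 reads), on chromosome X, had a peak in Hyp-Imm alone, and Tnc (7), Mmp2 (9) and the neighbours Col4a1 and Col4a2, which share 1 promoter peak (10), were the others. In Hyp-Pro only stood Fbln2 (22), Timp2 (21), Thbs1 (18), Timp1 (13, on chromosome X) and Col5a1 (15). Of 16 epithelial genes, 1 was open in both, 3 in Hyp-Pro only and 4 in Hyp-Imm only, the last being Cdh1 (8 reads), Krt19 (8), Trp63 (7) and Grhl2 (7). Over all peaks of Hyp-Imm the median pileup was 7 reads and the lowest 4.

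The lists of secreted, antioxidant, Hox, AP-1 and contractile genes were counted in the same way. Of 30 secreted factors of senescent cells, 3 were open in both, 8 in Hyp-Pro only and 0 in Hyp-Imm only, the 8 including Tgfb1 (21), Igfbp7 (14), Cxcl1 (11) and Il6 (10). Of 22 antioxidant genes 12, 6 and 1 were so placed, with Txnrd1 (19), Hmox1 (16), Cat (15) and Gclc (13) in Hyp-Pro only, although the distal AP-1 region upstream of Hmox1 was shared (28 reads in Hyp-Pro, 10 in Hyp-Imm, 15 in Norm-Pro and 20 in Norm-Sen). Of 33 Hox genes, which record position along the body axis, 3 were open in both, 9 in Hyp-Pro only and 1 in Hyp-Imm only, among them Hoxa4 (18) and Hoxa13 (16). Of 15 AP-1 and TEAD factors 8, 2 and 2 were so placed, with Jun at 27 and 14 reads, Yap1 at 10 and 9, Wwtr1 (26) and Fos (12) in Hyp-Pro only, and Tead4 (11) and Fosb (9) in Hyp-Imm only. Of 12 contractile genes 3, 2 and 2 were so placed, with Tpm2 (19) in Hyp-Pro only and Tagln (11) in Hyp-Imm only.

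The number of distal regions around a gene was usually low. Within 50 kb of the TSS the median gene had 1 distal Hyp-Pro-only and 1 distal Hyp-Imm-only region. The most Hyp-Pro-only regions stood around Auts2 (11), Pde10a (11), Dab2ip (10), Gm47283 (10) and 1600014C10Rik (9, a value 6 genes shared), and the most Hyp-Imm-only regions around Cwc22 (10), Kalrn (10), Shank2 (9), Ptprd (8) and Akap12 (7, a value 13 genes shared). Around Cwc22, a splicing factor gene, there were also 7 Hyp-Pro-only and 11 shared regions. Kalrn, Shank2 and Ptprd, large genes best known from neurons, had a promoter peak in Hyp-Pro only.

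Open regions met few Tfcp2l1 ChIP-seq peaks. Of the 612 ChIP-seq peaks from immortalized MEFs in hypoxia, 85 overlapped a peak in both libraries, 48 one in Hyp-Pro only, 24 one in Hyp-Imm only and 455 none, so that 21.7% overlapped Hyp-Pro (95% CI 18.5-25.2) and 17.8% Hyp-Imm (14.9-21.1). Of the 393 ChIP-seq peaks from senescent MEFs in normoxia the shares were 32.3% (27.7-37.2) and 22.9% (18.8-27.4). The hypoxia and normoxia ChIP-seq lists met 84 and 77 of the 7017 shared regions, and 0.0594% to 0.134% of the regions of 1 library.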

How the data were processed

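ATAC-seq of 4 MEF libraries, 1 per condition, and Tfcp2l1 ChIP-seq of 2 were measured. For ATAC-seq the authors used Bowtie2 with the mouse genome GRCm38 (mm10), dropped fragments above 2 kb, moved read ends to the transposase cut, and ran MACS2 on each library separately (FDR 0.05). In the deposited files the fold enrichment is a ratio of summit pileup to local background, and the −log10 p and −log10 q of the summit were computed by the authors with MACS2. The score column deposited by the authors was not used. The peak lists hold no reads, so depth was taken from the background that fold and −log10 p imply (solved for 100% of peaks within 0.001), 0.445 to 1.77 reads per position.

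Conditions came from the labels. Peaks were joined with bedtools 2.31.1, scripts ran in Python 3.11.15 with pandas 2.3.3 and scipy 1.17.1, and the pileup recovery, the joining of peaks, the motif search and the run search were tested on simulated data. Genes were 21864 protein-coding genes of GENCODE vM21. CpG-rich promoters had at least 55% GC and an observed over expected CpG of at least 0.6 in the 1 kb around some TSS. Motifs were searched on both strands within 100 bp of the summit. CTCF and Tfcp2l1 were searched by consensus, and matches of different motifs may overlap. Sequences are from the RefSeq copy of GRCm38, none from chromosomes 18, X or Y. With no replicates there was no test.

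The regions, the 23 gene lists and the measures were chosen with earlier results of these data known, and the dinucleotide runs after the strongest regions had been seen. Named are the 10 strongest regions and 8 strongest promoters per class, 26 genes the study measured, up to 6 genes per list with a promoter peak in 1 library only, and the 5 genes with most regions of each class within 50 kb. List members open in both or neither, and Aurkb, Col4a1, Col4a2, Tnc, Mmp2, Col5a1 and the ATAC-seq regions whose sequence is printed, fall outside this rule in part and were chosen after their values were seen. Some items that this rule selects are not reported here.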

Additional observations from a re-analysis of the deposited data

Results flagged for a closer look

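The change from Hyp-Pro to Hyp-Imm and the change from Norm-Pro to Norm-Sen ran in opposite directions in 4 measures. Each change compares 1 library with 1 library, and the difference between the pairs was not tested.

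The share of peaks on chromosome X differed by -3.32 percentage points (Hyp-Imm minus Hyp-Pro) in hypoxia and by 3.36 points (Norm-Sen minus Norm-Pro) in normoxia. The background differed by -0.51 reads per position in hypoxia and by 0.528 in normoxia. The share of peaks at a promoter differed by -6.92 points in hypoxia and by 1.93 points in normoxia. The share of distal peaks with a dinucleotide run of at least 20 bases differed by 7.1 points in hypoxia and by -3.43 points in normoxia. The file names would pair these libraries differently, as described above.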

How the results depend on the processing

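No paired analysis was possible because each condition had 1 library, and for the same reason no replicate could be left out. Of 75 values over 14 results, 40 moved by less than their counting interval or by less than 1.5 times for counts, and 35 moved further. The settings without chromosomes X and Y and without dinucleotide runs were chosen after seeing the data.

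The share of regions open in both was 9.68% with equal numbers of peaks, 7.88% with an overlap of 50% of the shorter peak, 9.74% without runs and 12.7% with conditions from the file names. Shares at promoters for shared, Hyp-Pro-only and Hyp-Imm-only regions were 74.1%, 21.7% and 9.67% with equal numbers, 71.0%, 18.2% and 7.41% within 500 bp of a TSS, and 74.5%, 22.0% and 10.2% without runs. By the file names they were 62.6%, 10.8% and 10.3%, with 53919 regions in the immortalized library only, and 9474 genes were open in both, 1624 at pass 1 only and 2029 in the immortalized library only, so that the order of the last 2 turned.

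The AP-1 share of distal Hyp-Pro-only regions was 12.1% with equal numbers, 6.68% within 50 bp of the summit (a window of 100 bp), 11.9% without chromosomes X and Y, and 12.0% without runs. For Hyp-Imm-only regions it was 2.94% in the shorter window and 6.54% without runs. By the file names the values were 8.02% and 8.27%, with overlapping intervals and the order turned. The CTCF share was 1.70% and 0.838% in the shorter window, 3.26% and 1.75% without runs, and 2.48% and 2.78% by the file names. There its order turned too, and the intervals again overlapped. The share of Hyp-Pro-only regions whose expected pileup reached the lowest callable in Hyp-Imm rose from 59.6% to 96.9% when scaled by shared promoters. The causes were not tested.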
